A study of Mus musculus with 4 samples.

Results

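The 10 genes described here encode the calcium-dependent kinases and the phosphatase of the excitatory synapse, with the scaffold and calmodulin-binding proteins that work beside them. They are Camk2a, Camk2b, Camk2d, Camk2g, Camk4, Ppp3ca, Ppp3cb, Dlg4, Dlg3 and Nrgn. The members were every probe set whose annotation gave 1 of these symbols and no other. This found 10 of the 12488 probe sets on the array, for 9 of the 10 genes: 2 for Camk2a, 1 for each of the other 8, and none for Camk2g. Of the 10, 9 were bright enough to test, and the Camk2d probe set was not.

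The samples were visual cortex from wild-type C57Bl6 mice, 5 in all, kept in the dark from birth until postnatal day 42. On that day each mouse lost 1 eye, and a normal light-dark environment followed for 4 days until death on day 46. Cortex contralateral to the missing eye is called deprived, and cortex ipsilateral to it non-deprived, so both sides shared the dark rearing, the operation and the late first light. Tissue was pooled within a side, giving 2 deprived and 2 non-deprived arrays. The labels do not say how the mice were shared out among these pools, and the p-values below therefore reflect the spread between 4 arrays. No sighted, light-reared or unoperated group is part of this comparison.

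Calcium that enters a dendritic spine through NMDA receptors binds calmodulin, and calmodulin switches on enzymes with opposing effects. CaMKII, a large ring built from alpha, beta, gamma and delta subunits, strengthens synapses and can keep itself active by phosphorylating its own subunits, while calcineurin removes phosphates and takes part in weakening them. In mouse visual cortex, CaMKII alpha and calcineurin are both known to take part in the shift of responses that follows closure of an eye.

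Each array gave 1 MAS5 signal per probe set, in arbitrary units on a linear scale. The arrays had nearly equal trimmed means and medians between 189.9 and 245.7, and deprived array 1 resembled the other 3 arrays least (mean correlation 0.91, against 0.93 for each of the others). For actin, the 5′ control probe set divided by the 3′ one gave lower values on the deprived arrays, 0.544 and 0.463, than on the non-deprived arrays, 0.638 and 0.632. For Gapdh this quotient was 0.745 and 0.689 on the deprived against 0.875 and 1.07 on the non-deprived arrays. These quotients are a sign of RNA quality, and their part in the results below was not tested. Neuronal markers gave signal on every array, but no other tissue was measured beside them. The 4 tested excitatory-neuron genes of 6 listed had summed signals of 11268 and 13067 on the deprived and 11753 and 11154 on the non-deprived arrays. For the 6 pan-neuronal genes the sums were 37416 to 45853 and 41991 to 46197. Slc17a7 and Nrn1, also on the excitatory list, had no probe set of their own. For 4 tested oligodendrocyte genes of 6 the sums were 12148 and 11078 on the deprived, above the 10231 and 9139 on the non-deprived arrays. For 5 tested genes of 10 for the neighbouring striatum, thalamus and hippocampus they were 3309 and 2504 against 2516 and 2382. These sums overlapped between the sides. All 5 had a log2 fold change above 0, with a median of 0.14, but only Penk was higher on both deprived arrays than on both non-deprived ones. Drd2 and Prkcd read 411 and 1132 on deprived array 1 but 132 and 531 on deprived array 2. The sums of inhibitory-neuron, astrocyte and endothelial genes overlapped between the sides, and those of 5 tested microglial genes of 6 were 4721 and 4948 against 4679 and 4690. Of all tested markers, the lowest adjusted p was 0.515 in limma, and the part of these shifts in the results below was not tested. In bulk tissue, fewer cells of a type and less RNA per cell cannot be told apart.

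Changes are given as log2 fold changes of deprived over non-deprived, fitted with limma on log2(signal + 60.6) over all 7458 tested probe sets. The added 60.6 keeps dim signals from dominating and makes the changes of dim probe sets smaller than they are. Adjusted p-values are Benjamini-Hochberg values over the 7458, and the threshold was 0.05.

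Camk2a, the CaMKII alpha subunit that dominates in forebrain excitatory neurons, was lower in deprived cortex at both of its probe sets. The dimmer probe set read 71.6 (array 1) and 294 (array 2) in deprived cortex, compared with 581 (array 1) and 755 (array 2) in non-deprived cortex. Both deprived signals lay below both non-deprived ones, but on the log2 scale the deprived arrays differed more from each other than deprived array 2 did from either non-deprived array. The brighter probe set read 842 and 886 on the deprived and 1154 and 1604 on the non-deprived arrays. Here the deprived arrays were close together and the non-deprived ones further apart, again with no overlap.

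In the fit, the dimmer Camk2a probe set was 3.34-fold lower, a log2 fold change of -1.74 ± 0.43 (SE; 95% confidence interval -2.68 to -0.80; adjusted p = 0.286 in limma). The brighter was 1.54-fold lower, at -0.62 ± 0.21 (95% interval -1.07 to -0.17, adjusted p = 0.586 in limma). Neither passed the threshold, although both had intervals below 0 before adjustment. The dimmer one passed with the replicate number as a block, at an adjusted p of 0.032 in limma, the single tested member that did so. With 1 array left out a side held 1 array, so only the change is read from those fits. The change was -2.45 without deprived array 2 and -1.03 without deprived array 1. The size of the dimmer probe set's change therefore rested on which deprived array was read. It also moved with the value added before log2, to -1.40 at the 40th percentile of mean signals and -2.18 at 1.

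The Camk2a probe sets shared a direction and differed in size. The log2 signal of the dimmer minus that of the brighter was -2.77 (array 1) and -1.42 (array 2) on the deprived side, compared with -0.92 (array 1) and -1.03 (array 2) on the non-deprived side. The mean gap was thus 1.12 log2 units apart between the sides (deprived minus non-deprived -1.12; exact permutation test, two-sided, p = 0.333, the smallest that 2 arrays against 2 allow). Which part of the transcript each probe set reads was not analysed here.

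Camk2b, the beta subunit that ties CaMKII to actin filaments, gave no such difference. Its signals were 6110.55 and 7155 on the deprived and 7434 and 6899 on the non-deprived arrays, and the groups overlapped. The log2 fold change was -0.11 ± 0.18 (SE), with a 95% interval from -0.51 to 0.28. This interval lies within 1.5-fold in either direction, but it does not show that the level was equal. Camk2d, the delta subunit, was dim on every array, at 170 and 73.7 on the deprived and 88.5 and 84.0 on the non-deprived arrays, with a mean signal of 104 under the limit of 142.9 for testing. Deprived array 1 was the high one, and deprived array 2 was below both non-deprived arrays.

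Camk4, a kinase of the nucleus that phosphorylates the transcription factor CREB, was also faint. Its signals were 183 and 161 on the deprived and 203 and 252 on the non-deprived arrays. The groups did not overlap, but the signals lay near the limit for testing, and the log2 fold change of -0.31 ± 0.43 (SE) had an interval from -1.25 to 0.64. A fall by more than 2-fold or a rise of up to 1.5-fold would fit in that interval.

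**Figure D1:**
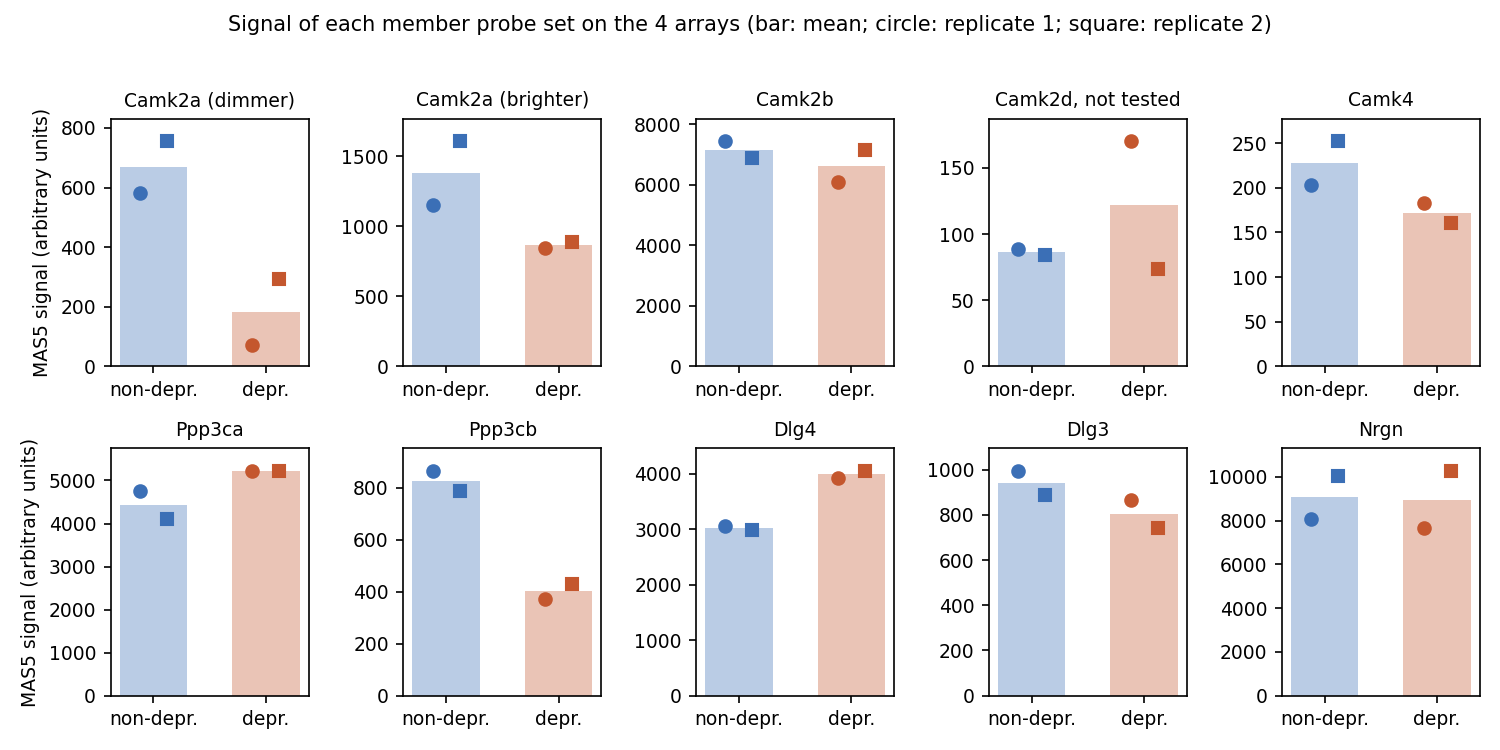
MAS5 signal in arbitrary units (vertical axes, from 0) of the 10 member probe sets on non-deprived (blue) and deprived (orange) arrays. Bars are means of 2 arrays, circles replicate 1 and squares replicate 2. Both Camk2a probe sets and Ppp3cb were lower on both deprived arrays, Dlg4 was higher on both, and the Camk2b and Nrgn arrays overlapped.

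Calcineurin's catalytic subunit has a separate gene for each of its isoforms, and the fitted changes of the alpha and beta isoforms had opposite signs. Ppp3cb, the beta isoform, read 372 and 431 on the deprived and 866 and 789 on the non-deprived arrays. Each side was tight, and the deprived signals were well under the others. The means were 402 ± 41.5 for the deprived side compared with 827 ± 54.6 for the other (SD, n = 2 arrays each).

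The fit put Ppp3cb 1.92-fold lower, at -0.94 ± 0.23 (SE; 95% interval -1.45 to -0.43; adjusted p = 0.286 in limma). It had the smallest unadjusted p of the 9 tested member probe sets, 0.0017, rank 43 of the 7458, next to the dimmer Camk2a probe set at rank 44. With the replicate block its adjusted p was 0.0902 in limma, so it missed the threshold in both fits. Unlike the dimmer Camk2a probe set, its change moved little when an array was left out, from -1.03 to -0.85.

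Ppp3ca, the alpha isoform and a main form of calcineurin in brain, was slightly higher in deprived cortex. It read 5226 and 5212 on the deprived and 4751 and 4095 on the non-deprived arrays, with no overlap. The log2 fold change was 0.24 ± 0.17 (SE; 95% interval -0.13 to 0.61; adjusted p = 0.999 in limma). The interval of Ppp3ca spans 0. The difference between the isoforms was not tested, because the contrast was chosen after their values were seen. Signals of different probe sets cannot be set against each other as amounts of RNA, so these data do not say which isoform was the more abundant.

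Of the scaffold genes, Dlg4 encodes PSD-95, the protein that holds NMDA and, through partners, AMPA receptors at the postsynaptic density. It read 3934 and 4056 on the deprived and 3060.45 and 2987 on the non-deprived arrays. Each side was tight and the deprived arrays were the higher, at 3995 ± 86.4 against 3024 ± 52.0 (SD, n = 2 arrays each). The fit gave 1.31-fold higher, at 0.39 ± 0.16 (SE; 95% interval 0.04 to 0.75; adjusted p = 0.836 in limma). Over the leave-one-out, scaling, pseudocount and filter alternatives its change stayed between 0.37 and 0.42. This was the narrowest range of the 9 tested member probe sets. Dlg4 did not pass in any alternative run on all 4 arrays.

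Dlg3 encodes SAP102, a relative of PSD-95 that is prominent at young synapses. It read 865 and 742 on the deprived and 995 and 889 on the non-deprived arrays. The groups did not overlap, though the higher deprived signal was near the lower non-deprived one. Its log2 fold change was -0.22 ± 0.20 (SE; 95% interval -0.66 to 0.23; adjusted p = 0.999 in limma).

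Nrgn encodes neurogranin, a small protein of dendrites that holds calmodulin until calcium rises. Its probe set read 7655 and 10285 on the deprived and 8076 and 10065 on the non-deprived arrays. On both sides the replicate 2 array was the higher, and the groups overlapped fully. The log2 fold change of -0.02 ± 0.21 (SE) had an interval from -0.49 to 0.44, and its sign changed with the array left out.

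**Figure D2:**
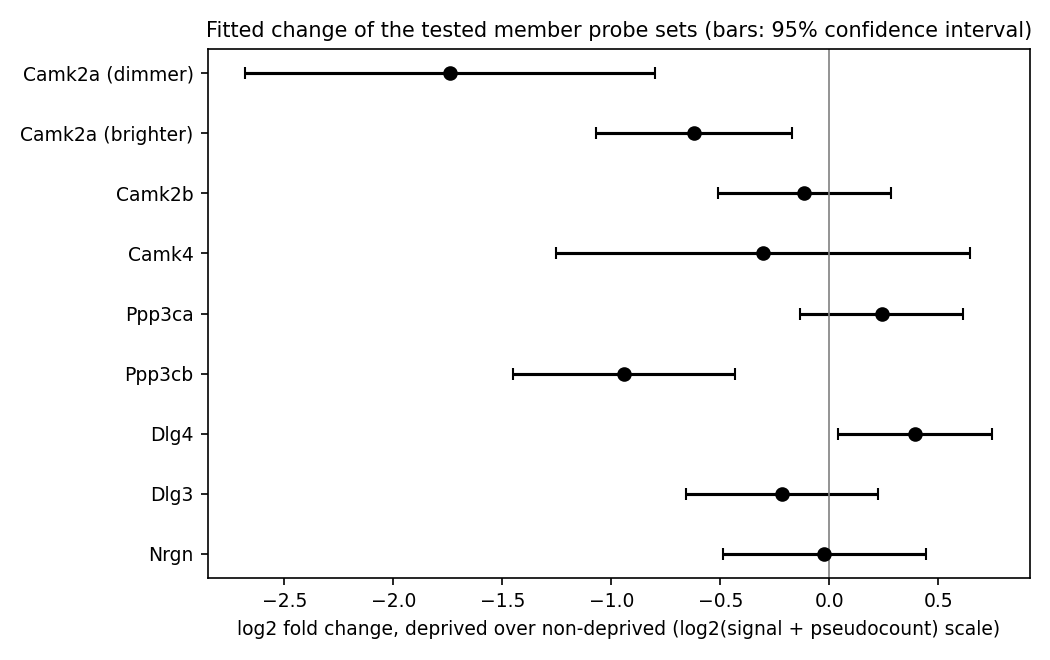
Fitted log2 fold change of deprived over non-deprived cortex (horizontal axis, log2(signal + pseudocount) scale) for the 9 tested member probe sets, with 95% confidence intervals as bars. Both Camk2a probe sets and Ppp3cb have intervals below 0, Dlg4 has one above 0, and the other 5 span 0; none passed after adjustment.

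Promoter windows were looked up for the members, to show what sequence lies at their starts. A RefSeq table of the GRCm38.p6 build held windows of 300 bases, from 250 before a gene's start to 50 after it, for 6 of the 10 members: 9 windows in all, with several starts for Dlg4 and Dlg3. Camk2a, Camk2g, Camk4 and Ppp3ca had no entry. The windows were searched on both strands for the cyclic AMP response element TGACGTCA, which CREB binds, for its short core TGACG, which the full element contains, and for the AP-1 site TGANTCA, which Fos and Jun proteins bind. The full element and the AP-1 site matched 0 of the 9 windows, against 1.79% and 7.81% of all 32851 windows in the table. The short core matched 3 of the 9, against 20.8% of all. The matches lay in Ppp3cb, in the third Dlg4 window and in the first Dlg3 window. Shown are the windows of Ppp3cb, the member with the smallest unadjusted p, and the matching window of Dlg4, which differed in the other direction. Capitals mark the short core. The Ppp3cb window lies at chr14:20546524-20546823 on the minus strand and has its match from base 250 to 254 of the window, across the start. The Dlg4 window lies at chr11:70023732-70024031 on the plus strand, with its match at bases 175 to 179.
Ppp3cb: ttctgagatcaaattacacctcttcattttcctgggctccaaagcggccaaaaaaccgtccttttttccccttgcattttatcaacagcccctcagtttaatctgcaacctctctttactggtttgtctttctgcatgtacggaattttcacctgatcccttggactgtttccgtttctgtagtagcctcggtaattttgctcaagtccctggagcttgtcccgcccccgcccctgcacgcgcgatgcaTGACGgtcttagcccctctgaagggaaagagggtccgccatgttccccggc
Dlg4: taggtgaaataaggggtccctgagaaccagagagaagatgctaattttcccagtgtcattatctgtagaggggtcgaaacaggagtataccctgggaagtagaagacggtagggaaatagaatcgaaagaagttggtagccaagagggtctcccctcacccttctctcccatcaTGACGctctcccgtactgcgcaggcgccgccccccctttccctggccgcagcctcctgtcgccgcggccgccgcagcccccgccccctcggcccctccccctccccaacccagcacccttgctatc
A match describes the letters only. Members on either side of 0 held one.

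As a set, 0 of the 9 tested member probe sets passed the adjusted threshold in limma in either direction. Over all tested probe sets 0.107% passed, all of them lower. The members were chosen with earlier results of these data known. The shares over all probe sets set beside their counts are therefore a description, not a test. Both Camk2a probe sets read the same gene and are counted separately. Before adjustment, 4 of the 9 had a p under 0.05. These were both Camk2a probe sets and Ppp3cb, which were lower, beside 3.66% of all tested probe sets, and Dlg4, which was higher, beside 1.77%. The count of 4 became 2 with arrays scaled to a common median, and 2 without the variance trend. With the block 1 of 9 passed the adjusted threshold, against 0.536% of all. The lowest group mean of a tested member was 171.9, so none was tested on the strength of its brighter side alone.

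Of the 9, 5 were lower on both deprived arrays than on both non-deprived ones, where 17.1% of all tested probe sets were, and 2 were higher, where 15.1% were. The 5 include both Camk2a probe sets. The members were chosen with earlier results known, so these counts and medians are not a test either. The 2 members that overlapped were Camk2b and Nrgn. In all 7 of the 9 had a fold change below 0, where 49.8% of all did. The median log2 fold change was -0.22 over the members and 0.0015 over all tested probe sets, and the median size regardless of sign was 0.31 against 0.19. Among the neuronal marker lists, the median was -0.24 over the 6 pan-neuronal genes, 4 of them lower. It was -0.18 over the 6 inhibitory-neuron genes, 5 of them lower, and -0.09 over the 4 tested excitatory-neuron genes, 2 of them lower. The part of these shifts in the members' median was not tested. The member median was below 0 in all 4 pairings of the sides' arrays, from -0.36 to -0.19.

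The design text mentions cross-animal comparisons beside the main ones, so each deprived array was also read against each non-deprived one. The dimmer Camk2a probe set and Ppp3cb were at least 1.5-fold lower in all 4 pairs, which 1.58% of all tested probe sets were, and no member was 1.5-fold higher, where 0.322% were. For Ppp3cb the log2 ratios in the 4 pairs ran from -1.10 to -0.79. For the dimmer Camk2a probe set they were -2.28 and -2.62 with deprived array 1 and -0.86 and -1.20 with deprived array 2. For the brighter one they were instead set by the non-deprived array, at -0.43 and -0.36 with array 1 and -0.88 and -0.81 with array 2. Dlg4 ran from 0.36 to 0.43.

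**Figure D3:**
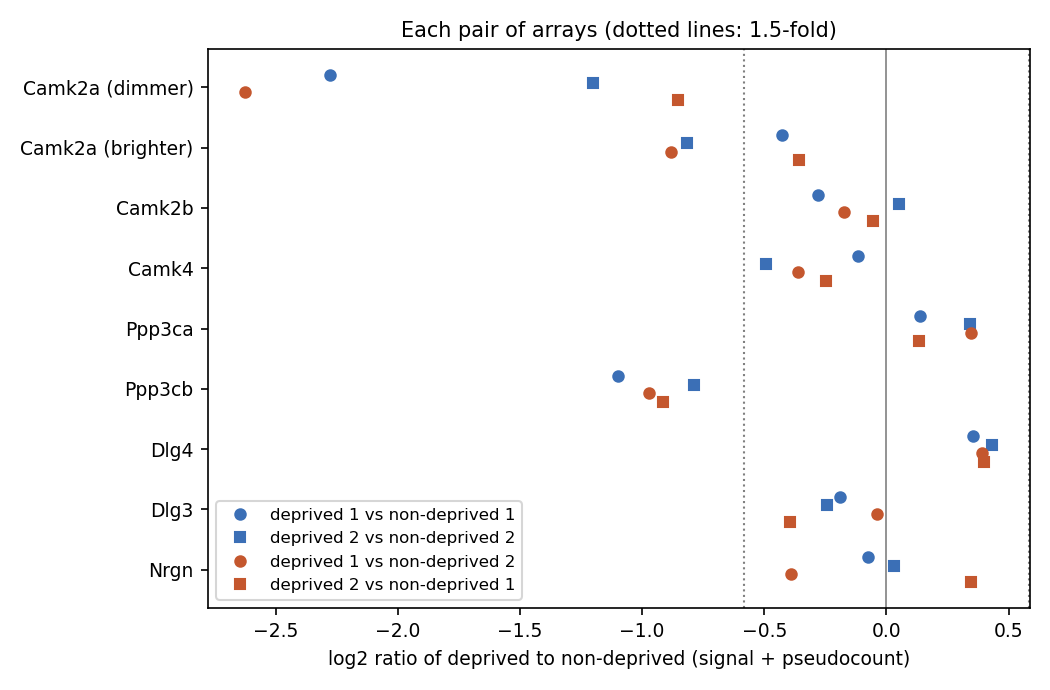
Log2 ratio of deprived to non-deprived signal (horizontal axis, pseudocount added) in each of the 4 pairs of arrays for the 9 tested member probe sets; blue marks same-numbered and orange cross-numbered pairs, circles deprived array 1 and squares deprived array 2, and dotted lines 1.5-fold. The points of Ppp3cb and Dlg4 lie close together, those of the dimmer Camk2a probe set fall apart by deprived array, and those of Nrgn lie on both sides of 0.

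Genes that work with these enzymes and scaffolds were read from a list of 67, among them calmodulins, other CaM kinases, calcineurin regulators, protein phosphatase 1 subunits, further scaffold proteins and glutamate receptor subunits. Of these, 34 had a probe set of their own and 29 were tested, each by its brightest probe set. In limma 0 of 29 passed in either direction, beside the 0.107% of all tested probe sets given above. Before adjustment, 2 had a p under 0.05 and were lower, beside 3.66% of all tested probe sets, and 0 were higher, beside 1.77%. The groups did not overlap for 7 lower genes, beside 17.1% of all, and for 1 higher gene, beside 15.1%. Of the 7, Grin2b, Homer3 and Homer1 had a deprived mean under the testing limit, and the 1 higher gene, Rcan3, had a non-deprived mean under it. These 4 were tested only because of their brighter side and had to differ, so the counts are not read further. In all 18 were lower, where 49.8% of all tested probe sets were, and 11 higher, with a median of -0.06. For Gria1, an AMPA receptor subunit named after its values were seen, the tested probe sets differed in sign. The brighter gave 0.24 ± 0.19 (SE) with overlapping groups. The dimmer, not counted here, gave -0.48 ± 0.20 with both deprived arrays lower (adjusted p = 0.890 in limma). Kalrn and Actn1, named in the same way, gave 0.13 and 0.02 at the brightest probe set. A dimmer probe set of each gave -0.61 ± 0.52 and -0.26 ± 0.28. A further Actn1 probe set, at 0.12 ± 0.43, and the dimmer one of Baiap2 kept the sign of the brightest.

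The 6 genes of that list with the smallest p were Grin2b, Nsf, Cask, Homer3, Rcan3 and Ppp1r1a. Grin2b, the NMDA receptor subunit to which CaMKII docks, read 91.7 and 70.2 on the deprived and 256 and 452 on the non-deprived arrays, at -1.51 ± 0.49 (SE, adjusted p = 0.552 in limma). Its deprived mean of 81.0 was under the testing limit, so this change is not read further. Nsf, the ATPase that takes apart used SNARE complexes and also binds AMPA receptors, read 1123 and 3376 against 3253 and 5707. Its groups overlapped, and within each same-numbered pair the deprived array was the lower. Its log2 fold change was -1.12 ± 0.39 (SE; adjusted p = 0.673 in limma, 0.0123 with the replicate block). The change of Nsf was -1.89 without deprived array 2 and -0.35 without deprived array 1. It was -1.52 without non-deprived array 1 and -0.72 without non-deprived array 2. Those fits hold 1 array on a side, so passing in them is not read.

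Of the other 4, Homer3 and Rcan3 were, like Grin2b, tested only because of their brighter side. Their changes are given but not read further. Cask, a scaffold kinase of the synapse, gave -0.36 ± 0.20 (SE) at a probe set whose suffix marks probes shared with similar sequences, so its gene is less certain. Homer3, which links metabotropic receptors to scaffolds, and Ppp1r1a, an inhibitor of protein phosphatase 1, gave -0.87 ± 0.50 and -0.64 ± 0.39. Without non-deprived array 1 Homer3 stood at -0.44, and Ppp1r1a stood at -0.26 without deprived array 1 and at -1.02 without deprived array 2. Rcan3, a calcineurin-binding regulator, gave 1.06 ± 0.64, and this rested on deprived array 2, which read 531 where the other 3 arrays read 83.0 to 104.

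A further 5 genes of the list were named after their values were seen, not by their rank in p. Ppp3r1, the calcium-binding regulatory subunit that calcineurin needs, gave -0.05 ± 0.20 (SE), and Ppp3cc, the remaining catalytic isoform, 0.19 ± 0.41. Rcan1, an inhibitor of calcineurin, gave 0.13 ± 0.25. Dlg1, the SAP97 relative of PSD-95, gave -0.06 ± 0.16 and Calm2, a calmodulin gene, -0.47 ± 0.33. For Calm2 both deprived arrays were below both non-deprived ones, and for the others the groups overlapped. All 5 had adjusted p of 0.993 or above in limma.

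**Figure D4:**
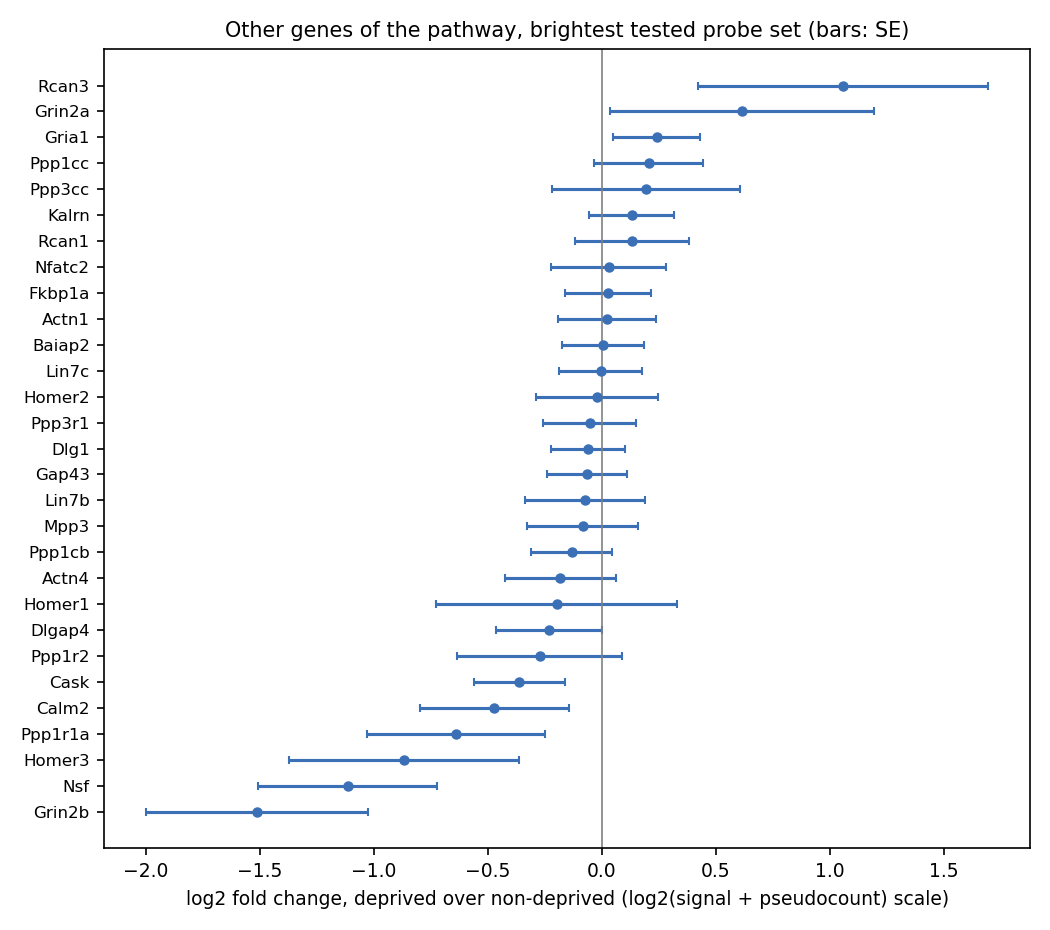
Fitted log2 fold change of deprived over non-deprived cortex (horizontal axis, log2(signal + pseudocount) scale) for the 29 tested genes that work with the members, each at its brightest probe set, with SE bars. Most lie within 0.25 of 0; Grin2b and Nsf are the lowest and Rcan3 the highest, and none passed after adjustment.

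The probe sets whose pattern over the 4 arrays was nearest to that of Ppp3cb were those of Pirb, Znrf1, Cdk5r1, Usp15 and Scpep1. Nearness was the Euclidean distance between log2 values centred on each probe set's mean, and it ran from 0.070 for Pirb to 0.130 for Scpep1. Cdk5r1, which encodes the p35 activator of the kinase Cdk5, read 412 and 507 on the deprived and 971 and 822 on the non-deprived arrays. It gave -0.88 ± 0.23 (SE), with an adjusted p of 0.370 in limma. The other 4 gave -1.03 to -0.83 and did not pass either. Among them, Pirb, Znrf1 and Scpep1 had deprived signals under the testing limit on both arrays. These genes were tested only because of their brighter side and had to be lower, so their direction is not read further. The choice by nearness also fixed a change close to that of Ppp3cb for each of these genes, Cdk5r1 and Usp15 included. Neither their changes nor their p-values are therefore read as results. Nearness over 4 arrays is a description only.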

How the data were processed

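RNA of 4 pooled samples of mouse visual cortex was measured on single-colour Affymetrix arrays. Per the submitters' processing notes, the authors made the deposited intensities with MAS5; the version, scaling target and detection calls are not given in the sources used here. Gene symbols came from the platform's annotation table and were updated through Entrez identifiers in a RefSeq table (10839 of 10855 probe sets with 1 symbol matched).

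Arrays were scaled to a common 2% trimmed mean, and log2 was taken after adding 60.6, the 20th percentile of mean signals. The 66 control probe sets and those under the 40th percentile (142.9) were left out. limma 3.58.1 in R 4.3.3 (lmFit, eBayes with a mean-variance trend) compared the sides, two-sided, with 2 residual degrees of freedom (11.6 in all with the prior). The fit was tested on simulated data. The number of arrays limits the precision.

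The design text implies that same-numbered arrays came from the same animals, and their deviations from the group means correlated at 0.27 over probe sets. The main fit had no block. A second fit took the replicate number as a block; it had 1 residual degree of freedom and leaned on the variance prior. Other normalizations, pseudocounts, filters and a fit without the trend were also run, and each array was left out.

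Named genes were all 10 members, the 6 listed pathway genes with the smallest p, and the 5 patterns nearest to the member with the smallest p. Genes named outside this rule are marked in the text. The members and lists were chosen with earlier results of these data known.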

Additional observations from a re-analysis of the deposited data

How the results depend on the processing

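The count of 0 member probe sets past the threshold became 1 with the replicate block, which was Camk2a. It stayed at 0 under the other settings run on all 4 arrays, an adjusted p of 0.2 included. The count of 4 at an unadjusted p under 0.05 in limma became 2 with the common median and 2 without the variance trend. The count of 0 listed pathway genes became 1 with the block, which was Nsf. With 1 array left out a side held 1 array, so counts past the threshold are not given for those fits. The members' median change ran from -0.32 to -0.18 with 1 array left out. The number of members that were 1.5-fold apart in all pairs, 2, was 4 at 1.2-fold and 0 at 2-fold, as those rules imply; without non-deprived array 1 there were 3. Nrgn, at -0.02 over all arrays, ran from -0.23 to 0.19 with 1 array left out, turning to 0.19 without deprived array 1 and 0.13 without non-deprived array 2. Over the 9 tested member probe sets and their alternatives, 2 values reversed in direction, both of them for Nrgn with 1 array left out. Among the alternatives run on all 4 arrays, 1 value newly passed, the dimmer Camk2a probe set with the replicate block. The filter at the 60th percentile gave no value for Camk4. Fits without a non-deprived array took their variance wholly from the prior. In every fit with 1 array left out, on either side, the lone array was assumed to vary like the other side. The 6 pathway genes with the smallest p were run under the same alternatives, which was added after seeing the data. Signals near the testing limit, as for Camk2d and Camk4, set the precision there.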
